A study of Mus musculus with 8 samples.

Results

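The comparison described here set mice with permanent middle cerebral artery occlusion (PMCAO) against sham-operated mice 24 h after surgery, all injected with saline. It rested on the saline channels of 4 two-colour arrays of 24 h, of 8 arrays in the series. Those were the Cy3 channels of the Pooled 1 arrays and the Cy5 channels of the Pooled 2 arrays, 1 of each for sham and for PMCAO, and the 4 arrays lay on 1 slide. The mice were C57BL/6J males of 8 to 12 weeks, and each received 1 μL of 0.9% saline into the ventricle of the left, contralateral side. In PMCAO the right middle cerebral artery was closed with an intraluminal filament that stayed in place, and mice of neurological grades 1 to 2 were taken. The tissue was the right, ipsilateral hemisphere, dissected without the olfactory bulb and cerebellum, so it held infarct core, its border and non-ischemic tissue together. The other channel of each array held RNA of mice with the same surgery and PACAP38, which is not the subject here.

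Each group was 1 pool of 3 mice, with 300 ng RNA of each. The Cy3 and the Cy5 array of a group carried the same RNA according to the methods, whereas the labels number them as separate pools. The dyes therefore give the labelling and array error alone, no value here covers the spread between mice, and no difference between sham and PMCAO could be tested. A value below is a normalized log2 intensity, and a ratio is the log2 of PMCAO over sham within a dye or the mean of the dyes. Between 65.7% and 69.7% of the probes were well above background on each of the 4 saline channels, and 27586 of 41174 probes passed the filter (well above background on both arrays of at least 1 group). In bulk tissue, fewer cells of a type and less RNA per cell cannot be told apart.

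Occlusion of a brain artery starves its territory of oxygen and glucose, and neurons in the core die within hours. The surviving glia and vessels then switch on stress genes, cytokines and chemokines, and within a day neutrophils and monocytes enter from the blood. Astrocytes around the infarct become reactive and microglia lose the surface receptors by which they survey healthy tissue.

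At 24 h, 1263 probes were more than 1.5-fold higher in the PMCAO pool (4.58% of those that passed) and 2125 were below 0.75-fold (7.70%). Both dyes were past the threshold for 956 of the higher and 1507 of the lower probes. For comparison, the difference between the dyes divided by 2, which holds no difference between the groups, put 31 probes above 1.5-fold and 289 below 0.75-fold when Cy5 was taken from Cy3. With the sign turned it put 211 above and 58 below. The balance rests on the unequal thresholds and on the scaling. At 1.5-fold either way it was 1263 higher against 737 lower probes, and with cyclic loess 1490 against 1474. The higher probes reached further from 0. More than 2-fold in each dye were 426 higher and 31 lower probes, and past 4-fold in the mean of the dyes were 131 higher and 12 lower. Taken as genes, by the brightest probe of each, 864 of 15636 measured genes were above 1.5-fold (5.53%) and 1184 below 0.75-fold (7.57%), and these percentages are the background for the gene groups below. The median over all measured genes was -0.04, with 6682 of the 15636 above 0 and 8953 below. These are the background for counts by sign below. Of the probes that passed, 782 did so through the PMCAO arrays alone and 727 through the sham arrays alone. Members let in by 1 group alone could pass because they were brighter there, so the list counts are not independent of the filter.

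**Figure D1:**
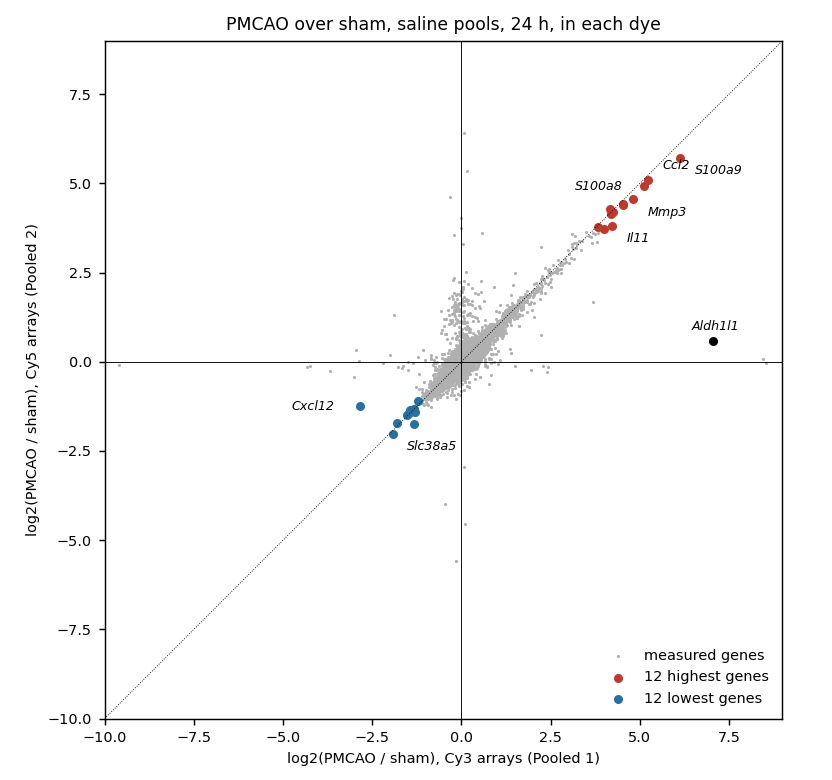
Each point is 1 measured gene, with log2(PMCAO / sham) on the Cy3 arrays on the x axis and on the Cy5 arrays on the y axis; the dotted line marks equal ratios. The 12 highest genes (red) lie along the line between 3.71 and 6.14 in either dye, while *Aldh1l1* (black) at 7.05 and 0.59 and the points along the axes were far from 0 in 1 dye only.

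Some of these calls rested on 1 dye. The dyes differed by more than 2-fold for 286 probes, of which 169 were above and 40 below the threshold in the mean. *Aldh1l1*, an astrocyte enzyme of folate metabolism, is the clearest in the gene groups. It read 5.88 in the sham Cy3 channel but 12.30 in the sham Cy5 channel, against 12.93 and 12.89 in PMCAO. The lowest ratio of all, -4.84 for the growth factor *Pdgfd*, had likewise -9.59 in Cy3 and -0.09 in Cy5. The genes with the largest ratios were therefore taken from those past 2-fold in each dye, 323 higher and 23 lower.

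The genes with the highest ratios at 24 h were calcium-binding proteins of neutrophils, chemokines and a matrix protease. *S100a9* and *S100a8*, the subunits of calprotectin, which fills the neutrophil cytoplasm, were 60.7-fold and 32.5-fold higher. *S100a9* measured 9.68 and 9.75 in sham and 15.82 and 15.46 in PMCAO (Cy3 and Cy5). *S100a8* measured 6.88 and 7.09 in sham and 12.00 and 12.02 in PMCAO. The sham and PMCAO channels lay far apart in both, which were chosen for their ratio. *Ccl2*, the main chemokine for monocytes, was 36.0-fold higher, from 7.71 and 8.09 to 12.94 and 13.20. *Mmp3* (stromelysin-1), which cleaves matrix proteins and activates other proteases, was 25.7-fold higher, from 6.06 and 6.49, with 1 of 2 sham arrays well above background, to 10.87 and 11.04. *Chil3*, a chitinase-like protein of alternatively activated macrophages, was 22.4-fold higher, and *Ccl4* and *Ccl3*, which attract monocytes and lymphocytes, were 22.1-fold and 18.7-fold higher. The neutrophil protein *Retnlg*, with 1 of 2 sham arrays well above background, was 18.6-fold higher. *Cxcl1*, a chemokine for neutrophils, was not well above background in sham and was at least 16.7-fold higher. *Il11*, a cytokine of the IL-6 family, was 16.2-fold higher, from 7.73 and 7.87 to 11.95 and 11.69. The uncharacterized cDNA *5430401F13Rik* (14.4-fold, 3.15 as log2 over all its probes) and *Cd14*, the co-receptor for lipopolysaccharide (14.0-fold), completed the 12 highest genes.

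**Figure D2:**
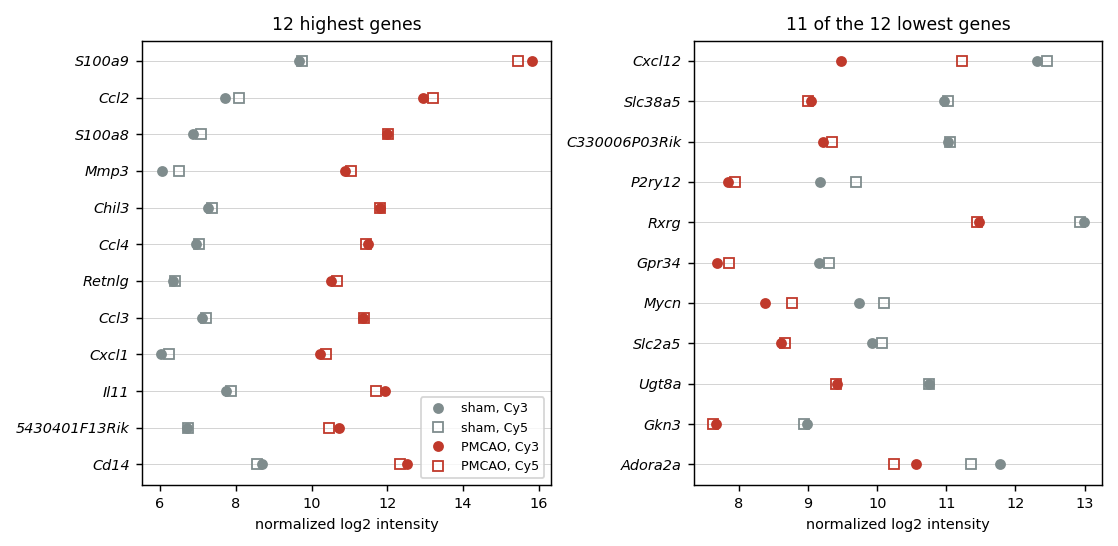
Normalized log2 intensity (x axis) of the 12 highest genes (left) and of 11 of the 12 lowest (right) in sham (grey) and PMCAO (red); filled circles are Cy3 and open squares Cy5 arrays. The genes were chosen on these values as past 2-fold in each dye, so the gap between the groups follows from the choice. The dyes of 1 group sit close together except for *Cxcl12* in PMCAO, at 9.47 and 11.22.

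The lower end was led by vascular, microglial, striatal and oligodendrocyte genes, all with much smaller ratios. *Cxcl12*, a chemokine that vessels and neurons of healthy brain express, measured 12.31 and 12.45 in sham and 9.47 and 11.22 in PMCAO, a ratio of -2.85 in Cy3 and -1.24 in Cy5, so its size is uncertain, and over all its probes the mean was -1.33. *Slc38a5*, a glutamine transporter of brain endothelium, was 3.92-fold lower, from 10.96 and 11.02 to 9.04 and 9.0. *Gkn3*, a marker of arterial endothelium in brain, was 2.50-fold lower. *P2ry12*, the ADP receptor of resting microglia, measured 9.17 and 9.69 in sham and 7.84 and 7.94 in PMCAO, 2.91-fold lower. *Gpr34*, a lysophosphatidylserine receptor of microglia, and *Slc2a5*, the fructose transporter that marks microglia in brain, were 2.75-fold and 2.56-fold lower. The retinoid receptor *Rxrg* (2.85-fold) and the adenosine receptor *Adora2a* (2.24-fold), genes of striatal neurons, were also lower. *Ugt8a*, which makes the galactolipids of myelin, was 2.53-fold lower, from 10.75 and 10.75 to 9.42 and 9.40. The transcription factor *Mycn* (2.56-fold, -0.74 as log2 over all its probes) and the cDNA *C330006P03Rik* (3.40-fold) were lower too.

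Of the list of IL-6 and IL-1 family cytokines, TNF, TGF-β1 and colony-stimulating factors, 9 of 15 measured members were above 1.5-fold and none below 0.75-fold. Members not well above background in sham entered this count only through the PMCAO arrays, where they were brighter. The count is therefore no independent support for a higher group. The list median was 0.64, and 1.66 with the scanner software's processed signals. *Il6* was not well above background in sham (6.19 and 6.27) and reached 9.19 and 9.40 in PMCAO, at least 8.29-fold higher. *Il1b* was 6.65-fold higher, from 6.82 and 6.96 to 9.58 and 9.66, and its natural antagonist *Il1rn* at least 4.31-fold. The granulocyte growth factor *Csf3* was at least 3.66-fold, *Tnf* at least 2.41-fold and *Osm* at least 1.74-fold higher, none of them well above background in sham. *Il33* (0.25 as log2) and *Il18* (-0.29) were inside the thresholds, and *Il10* and *Csf2* did not pass the filter. *Il1a*, not well above background in sham, was at least 1.25-fold higher and was not counted as above, though this bound cannot place it inside the threshold. *Il22*, a cytokine of lymphocytes, was flat at -0.05. Among receptors and feedback genes 13 of 19 were above the threshold and none below, with a median of 1.33. *Socs3*, the inhibitor of STAT3 signalling, was 8.08-fold higher, from 10.28 and 10.40 to 13.43 and 13.29. The decoy receptor *Il1r2* (5.92-fold), the NF-κB regulator *Bcl3* (4.94-fold), the TWEAK receptor *Tnfrsf12a* (2.22 as log2) and the oncostatin M receptor *Osmr* (2.05) followed. The receptor subunits *Il6st* (0.20) and *Lifr* (0.27) and the accessory protein *Il1rap* (-0.17 on its brightest probe) were inside the thresholds. Of the 4 *Il1rap* probes that passed, 1 was above 1.5-fold and 1 below 0.75-fold, so its direction is uncertain.

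Chemokines were higher in both of their lists. Of 12 measured CC chemokines 11 were above 1.5-fold, with a median of 2.19, the highest of the 41 lists. With the processed signals it was 2.79, and that of the neutrophil list 3.98. Besides *Ccl2*, *Ccl3* and *Ccl4*, *Ccl7* (1 of 2 sham arrays well above background) stood at 2.86, *Ccl9* at 2.70, *Ccl6* at 2.27, *Ccl12* at 2.12 and the T cell chemokine *Ccl5* at 1.77. The exception was *Ccl8*, at -0.46 and dim in every channel (7.01 at most). *Ccl11* was not well above background in sham, and its PMCAO values were 6.84 and 8.14. Of 9 measured CXC and CX3C chemokines 5 were above and 2 below. *Cxcl10*, an interferon-induced chemokine, was 7.05-fold higher, *Cxcl3* at least 4.77-fold, *Cxcl2* at least 2.21-fold, and the membrane-bound *Cxcl16* stood at 1.11. The lower members were *Cxcl12* and *Cx3cl1* (-0.52), the neuronal ligand of the microglial fractalkine receptor. The lymphocyte chemokines *Cxcl9*, *Cxcl11* and *Cxcl13* did not pass the filter.

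The 250 bases before the RefSeq start of the higher genes (build GRCm38.p6) were searched on both strands for 7 motifs. Of the 323 genes more than 2-fold higher in each dye, 244 had an entry in the table. The AP-1 motif TGANTCA stood in 15.2% of these promoters and in 6.87% of all 27025, and the NF-κB motif (GGG and TTTCC, 2 bases apart) in 5.74% against 1.40%. The STAT motif TTCNNNGAA was in 12.3% against 7.18% and the TATA box TATAAA in 18.9% against 13%. The CRE motif TGACGTCA (1.64% against 1.62%) and the antioxidant response motif (TGAC and GCA, 3 bases apart, 2.87% against 2.40%) were about as frequent as in all promoters. The heat shock motif (GAA, TTC and GAA, each 2 bases apart) stood in 1 of the 244 promoters, 0.41% against 0.40%, too few to compare. The promoters of *Atf3* and *Hspa1a* held none of the 7 motifs. Of the 23 lower genes 15 had an entry, with 1 promoter each for AP-1, STAT, TATA and the antioxidant motif and none for the others. These are shares of letters, with no test, and a match is not a binding site. The promoters below belong to higher genes with such matches and show where the letters lie. Sequences run 5′ to 3′ and end at the base before the start, and capitals mark the matches. *Il6* held NF-κB letters from base 44 and AP-1 letters from base 249 before the start, *Cxcl1* 2 NF-κB matches from bases 89 and 71, and *Cxcl3* 1 from base 73 and a TATA box from base 30. *Mmp3* held AP-1 letters from base 46 and TATA letters from base 7, *Plaur* AP-1 letters from base 69, and *Socs3* STAT letters from base 154. No 2 matches overlapped.
*Il6*, chr5:30012864-30013113, + strand: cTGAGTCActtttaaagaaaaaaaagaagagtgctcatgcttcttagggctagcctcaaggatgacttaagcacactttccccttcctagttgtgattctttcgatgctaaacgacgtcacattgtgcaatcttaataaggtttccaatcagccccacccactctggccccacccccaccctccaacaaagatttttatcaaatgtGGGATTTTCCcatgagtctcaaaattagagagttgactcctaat
*Cxcl1*, chr5:90890995-90891244, + strand: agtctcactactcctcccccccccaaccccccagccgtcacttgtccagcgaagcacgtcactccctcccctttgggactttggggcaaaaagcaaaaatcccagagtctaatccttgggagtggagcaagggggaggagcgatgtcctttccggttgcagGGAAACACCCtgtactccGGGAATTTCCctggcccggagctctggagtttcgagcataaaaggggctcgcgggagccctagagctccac
*Cxcl3*, chr5:90785851-90786100, + strand: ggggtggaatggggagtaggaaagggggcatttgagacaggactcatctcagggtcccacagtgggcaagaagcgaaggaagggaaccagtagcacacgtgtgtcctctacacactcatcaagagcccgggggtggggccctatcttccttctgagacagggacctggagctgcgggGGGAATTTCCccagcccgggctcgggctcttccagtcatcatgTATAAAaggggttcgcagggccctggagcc
*Mmp3*, chr9:7445572-7445821, + strand: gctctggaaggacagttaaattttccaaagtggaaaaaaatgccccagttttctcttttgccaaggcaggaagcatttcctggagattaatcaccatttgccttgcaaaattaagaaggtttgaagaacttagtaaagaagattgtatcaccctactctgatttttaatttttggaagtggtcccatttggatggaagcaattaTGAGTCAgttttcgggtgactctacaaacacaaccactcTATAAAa
*Plaur*, chr7:24462233-24462482, + strand: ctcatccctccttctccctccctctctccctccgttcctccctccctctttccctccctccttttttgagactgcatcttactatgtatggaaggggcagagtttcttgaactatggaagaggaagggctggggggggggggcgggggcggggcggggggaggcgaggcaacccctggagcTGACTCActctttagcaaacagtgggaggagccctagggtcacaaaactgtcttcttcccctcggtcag
*Socs3*, chr11:117969367-117969616, - strand: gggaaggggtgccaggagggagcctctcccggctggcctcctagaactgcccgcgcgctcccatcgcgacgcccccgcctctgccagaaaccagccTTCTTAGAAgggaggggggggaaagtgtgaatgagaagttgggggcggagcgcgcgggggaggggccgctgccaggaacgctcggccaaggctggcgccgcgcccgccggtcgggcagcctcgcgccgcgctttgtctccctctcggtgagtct

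Of the neutrophil genes, 12 of 16 measured members were above 1.5-fold and none below, with a median of 1.56 and all 16 above 0. Here too, members not well above background in sham entered the count only through the PMCAO arrays. The summed unlogged level of the list was between 2149 and 2234 in the sham channels and between 54219 and 66753 in the PMCAO channels. Most of the PMCAO sums came from 1 gene, *S100a9* (15.82 in Cy3 and 15.46 in Cy5 as log2), so they do not describe the list. Next to *S100a9*, *S100a8* and *Retnlg* came the lectin *Clec4d* (3.34), the collagenase *Mmp8* (at least 6.27-fold), the lectin *Clec4e* (at least 4.99-fold) and the formyl peptide receptor *Fpr1* (1.72). *Fpr2* was not well above background in sham and stood above the threshold. *Cxcr2*, the receptor for *Cxcl1* on neutrophils, was not well above background in sham (6.19 and 6.33) and read 7.49 and 7.45 in PMCAO. This made it at least 2.26-fold higher on its brightest probe, with 1 of the 2 probes that passed above the threshold. Granule protein genes differed among themselves. Besides *Mmp8*, *Ngp* was at least 1.93-fold higher, while *Mpo* stood at 0.10 and *Ltf* at 0.24, and *Elane* and *Camp* did not pass the filter. Lymphocyte genes gave no such picture. Of 14 T and NK cell genes on the array, 4 were measured and none was past a threshold. *Cd3e* was not well above background in PMCAO, *Lck* stood at 0.23, and *Crtam*, an adhesion molecule of activated killer cells, at 0.45.

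The microglia and macrophage list split. Of 28 members, all measured, 11 were above 1.5-fold and 5 below 0.75-fold, with a median of 0.31. The higher members were receptors and secreted products of activated or infiltrating phagocytes. *Lgals3* measured 7.66 and 7.75 in sham and 10.46 and 10.55 in PMCAO, 6.97-fold higher. The secreted phosphoprotein *Spp1* (osteopontin) was 6.24-fold higher, the scavenger receptor *Msr1* stood at 2.03, *Clec7a* at 1.25 and the lysosomal *Cd68* at 1.07. *Arg1*, arginase 1, was not well above background in sham (6.34 and 6.25) and read 8.56 and 8.43 in PMCAO. The lower members were genes of resting microglia. *Siglech* stood at -1.06, *P2ry13* at -0.89 and *Tmem119* at -0.54, beside *P2ry12* at -1.54, and *Aif1* (Iba1) at -0.42 was just past the threshold. The general genes *Csf1r* (-0.38), *Cx3cr1* (-0.27) and *Itgam* (0.11) stayed within the thresholds. *Ccr2*, the receptor for *Ccl2* on monocytes, was dim and stood at 0.13.

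**Figure D3:**
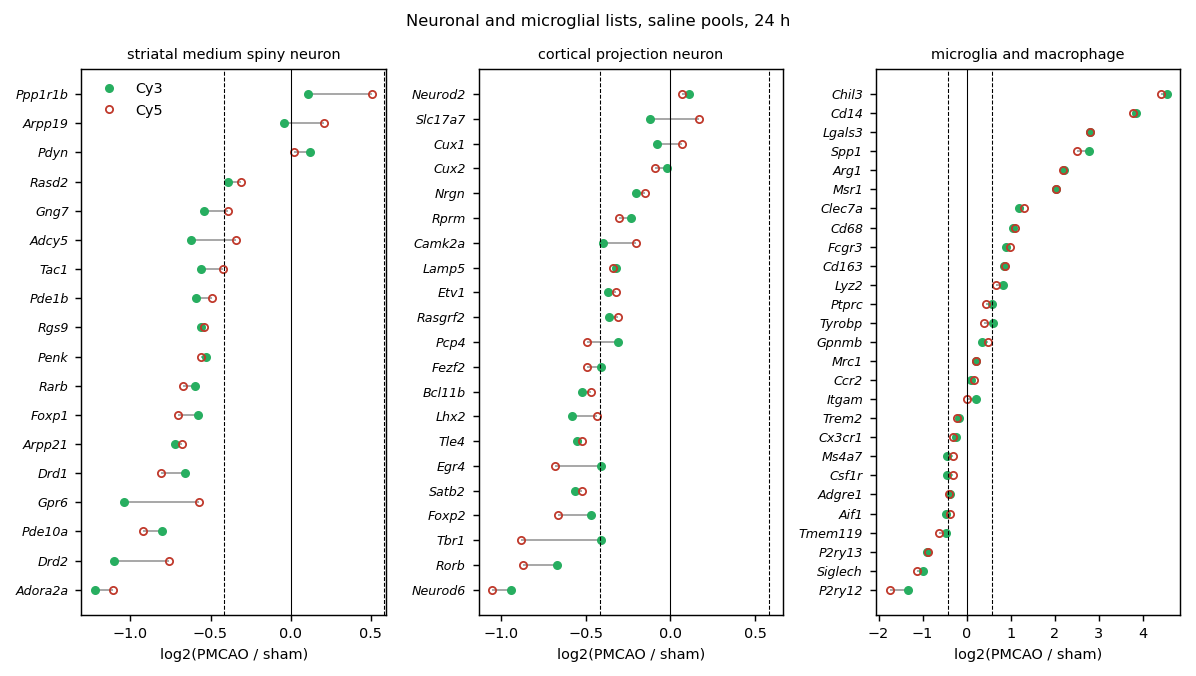
log2(PMCAO / sham) (x axis) of the measured genes of the striatal, cortical and microglial lists (1 striatal and 1 microglial gene not drawn), Cy3 as filled and Cy5 as open circles; dashed lines mark 1.5-fold and 0.75-fold. The neuronal lists lie mostly left of 0, from -1.17 for *Adora2a* upward, whereas the microglial list runs from -1.54 for *P2ry12* to 4.48 for *Chil3*.

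Of 21 reactive astrocyte genes, 19 were above 1.5-fold in each dye and none below, with *Tnc* (0.54) and *S1pr3* (0.50) inside the thresholds and a median of 1.76. *Timp1*, the secreted inhibitor of matrix proteases, was 12.6-fold higher, from 10.07 and 10.09 to 13.77 and 13.69. The siderophore-binding protein *Lcn2* was 10.2-fold higher and the protease inhibitor *Serpina3n* 6.20-fold, and the long pentraxin *Ptx3* stood at 3.0. The intermediate filament genes had smaller ratios, *Gfap* 2.32-fold from 11.77 and 11.94 to 13.02 and 13.12, *Vim* 2.39-fold and *Nes* 2.01-fold. By contrast the list of resting astrocyte genes had a median of -0.03. The glutamate transporters *Slc1a2* (-0.25) and *Slc1a3* (0.05), the water channel *Aqp4* (-0.19), the gap junction gene *Gja1* (-0.17) and glutamine synthetase (*Glul*, 0.16) were inside the thresholds. *Slco1c1*, a thyroxine transporter of astrocytes and brain vessels, was 1.96-fold lower.

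Of AP-1 and ATF factor genes 8 of 11 were above 1.5-fold, with none below. *Atf3*, a stress-induced member, was 13.2-fold higher, from 7.73 and 8.00 to 11.57 and 11.62, *Maff* was 9.46-fold and *Fosl1* at least 4.24-fold higher, and *Fos* itself stood at 1.44. Activity-dependent genes divided, with 7 above and 8 below the thresholds among 19. The stress-responsive *Gadd45b* (3.78-fold), *Ier3* (3.57-fold), *Gadd45g* (3.37-fold) and *Ptgs2* (cyclooxygenase-2, 1.26 as log2) were higher. Lower were 8 genes that neurons can induce with synaptic activity. *Nr4a2* stood at -1.14, *Homer1* at -0.74, *Egr2* at -0.73, *Egr4* at -0.54, *Egr1*, *Egr3* and *Bdnf* at -0.53 and *Arc* at -0.50. Other activity-dependent genes were not lower, with *Nptx2* above the threshold at 0.86 and *Npas4* (0.28), *Inhba* (0.20), *Rgs2* (0.20) and *Nr4a1* (-0.09) inside the thresholds.

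Among heat shock genes 4 of 17 were above 1.5-fold and the list median was -0.08. *Hspa1a* (Hsp70) measured 12.52 and 12.28 in sham and 15.62 and 15.59 in PMCAO, 9.2-fold higher on its brightest of 4 probes, all 4 of which were above the threshold. The near-identical copy *Hspa1b* cannot be told apart from it. *Hspb1* (Hsp27) was 5.25-fold and the cochaperone *Bag3* 2.19-fold higher. The constitutive *Hspa8* (0.18), *Hsp90aa1* (-0.08) and the endoplasmic *Hspa5* (-0.09) were flat, and *Dnajb5* (-0.52) was lower.

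Of hypoxia-inducible genes 6 of 21 were above 1.5-fold. *Hmox1*, which degrades heme, was 10.3-fold higher, from 9.67 and 9.28 to 12.86 and 12.80, and the vasodilator peptide *Adm* 5.33-fold, and hexokinase 2 (*Hk2*) stood at 1.07. The classical targets *Vegfa* (0.36), *Ldha* (0.33), *Pdk1* (-0.01) and *Pgk1* (0.19) were inside the thresholds. Metallothioneins, which bind zinc, were higher for *Mt1* (2.58-fold) and *Mt2* (2.46-fold, with 1.62 in Cy3 and 0.99 in Cy5) but not for the neuronal form *Mt3* (0.08). In the oxidative stress list, which holds *Hmox1* and the metallothioneins, 5 of 16 were above 1.5-fold, among them *Txnip* (2.35-fold), which binds thioredoxin, and the sulfiredoxin *Srxn1* (1.64-fold). *Nqo1* stood at 0.55, *Sod1* at -0.12, *Prdx1* at 0.17 and *Gclm* at 0.28. In the integrated stress response 5 of 15 were above, among them *Gdf15* (4.85-fold), *Cebpb* (2.94-fold) and *Ppp1r15a* (2.38-fold). The amino acid genes *Asns* (-0.08) and *Chac1* (-0.03) were flat. *Fgf21* was well above background on 1 PMCAO array only.

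Proteases and their inhibitors were higher in 11 of 18 cases, with none below. Besides *Mmp3* and *Timp1*, the urokinase receptor *Plaur* was 10.4-fold higher, from 7.80 and 7.83 to 11.17 and 11.22, and the aggrecanases *Adamts1* and *Adamts9* stood at 2.36 and 2.19. *Mmp9*, the gelatinase most studied in stroke, stood at 0.86 and *Mmp2* at -0.16. Vascular genes divided as well, with 9 above and 2 below of 19. *Angpt2*, which loosens vessels, was 5.97-fold higher, and the adhesion molecule *Icam1* stood at 2.15 and *Selp* was at least 2.44-fold higher, whereas *Vcam1* (-0.30) was inside the thresholds and *Sele* did not pass the filter. *Cdh5* was 3.99-fold higher, with 1.5 in Cy3 and 2.49 in Cy5. The angiopoietin receptor *Tek* (-0.77) and the VEGF receptor *Kdr* (-0.49) were lower. Matrix genes were above in 9 of 23 cases, such as *Thbs1* (5.63-fold on its brightest probe, 1.1 as log2 over all its probes, with 1 of 3 past the threshold), *Ccn1* (5.59-fold), *Lox* (1.54 as log2) and the basement membrane collagens *Col4a1* (1.53) and *Col4a2* (1.35). The fibrillar *Col1a1* was flat at -0.01.

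Complement, interferon and cell death genes were higher in smaller part. Of 13 complement genes 5 were above 1.5-fold, the highest being *C3* (1.96-fold) and *C4b* (1.8-fold), and the microglial *C1qa* stood at 0.37. Of 19 interferon-stimulated genes 6 were above, with *Rsad2* 3.13-fold (2.04 in Cy3 and 1.25 in Cy5, and 1.02 as log2 over all its probes) and *Ifitm3* 2.38-fold higher. In the Bcl2 family and caspases *Bcl2a1b* (3.72-fold, with near-identical copies that may share its signal), *Pmaip1* (Noxa, 3.11-fold), *Casp4* (2.95-fold) and *Fas* (1.44 as log2) were higher and *Bcl2* (-0.85) lower. In the cell cycle list the inhibitor *Cdkn1a* (p21) was 5.71-fold and *Myc* 2.29-fold higher, while *Mki67* stood at -0.21 and *Cdk1*, *Ccnb1* and *Top2a* did not pass the filter.

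Glucocorticoid-responsive genes were above 1.5-fold in 9 of 11 cases, with none below and a median of 1.26. *Plin4*, a lipid droplet protein, was 6.01-fold higher, from 10.46 and 10.59 to 13.12 and 13.10, the kinase *Map3k6* 3.98-fold, and *Sgk1* and *Fkbp5* stood at 1.35 and 1.26. *Tsc22d3* (0.35) and *Per1* (0.42) were inside the thresholds. Of 17 measured growth factor genes *Gdf15* and *Hbegf* (2.09-fold) were above and *Bdnf* and *Vegfc* (-0.51) below, and *Igf1* was flat at 0.03.

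Genes of striatal medium spiny neurons, the projection neurons in the centre of the middle cerebral artery territory, were lower in 15 of 19 cases, with none above and a median of -0.55, the lowest median of the 41 lists. *Adora2a* measured 11.78 and 11.36 in sham and 10.56 and 10.25 in PMCAO. The dopamine receptors *Drd2* (-0.93) and *Drd1* (-0.74), the phosphodiesterase *Pde10a* (-0.86), *Penk* (-0.55) and *Tac1* (-0.49), which mark the indirect and the direct pathway, were all lower. *Pdyn* (0.07), *Arpp19* (0.08) and *Ppp1r1b* (DARPP-32, 0.31, with 10.69 and 9.47 in sham) were not. Of 21 cortical projection neuron genes 10 were lower and none higher, with a median of -0.40. *Neurod6* was 1.99-fold lower, from 11.14 and 11.32 to 10.19 and 10.27, the layer 4 gene *Rorb* 1.70-fold and *Tbr1* 1.57-fold, with -0.41 in Cy3 and -0.88 in Cy5. *Cux1* (-0.01), *Cux2* (-0.05), the vesicular transporter *Slc17a7* (0.02) and *Nrgn* (-0.18) were inside the thresholds.

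The interneuron list was lower in 4 of 15 cases with a median of -0.14. *Cort* (1.59-fold), *Calb1* (1.58-fold), *Vip* (1.56-fold) and *Cck* (-0.50 as log2) were the 4, while *Gad1* (0.04), *Gad2* (0.03), *Pvalb* (-0.07), *Sst* (-0.16) and *Npy* (-0.08) were flat. Of 30 measured glutamate and GABA receptor genes 12 were lower and none higher, led by the AMPA subunit *Gria3* (1.73-fold on its brightest probe, with 2 of 3 probes past the threshold), the NMDA subunit *Grin2a* (1.54-fold) and *Grm3* (1.53-fold). *Grin1* (-0.12) and *Gria1* (-0.18) were inside the thresholds. Of 39 voltage-gated channel genes 7 were lower and 32 were below 0, with *Kcnv1* (1.84-fold), *Kcna4* (1.68-fold) and *Kcnq5* (1.61-fold) first. Synaptic genes were lower in 6 of 20 cases, 3 of them in both dyes. *Homer1* (1.67-fold) and *Pclo* (1.47-fold) were among the lower ones, whereas *Snap25* (-0.04), *Syp* (0.01) and *Vamp2* (0.02) were flat. *Dlg4* (PSD-95) stood at -1.19 in Cy3 and -0.33 in Cy5. The thalamic list, from tissue supplied by other arteries, had 1 of 10 lower, *Gbx2* at -0.47, with 8 of 10 below 0 and a median of -0.27. *Gbx2* was past the threshold in Cy5 alone (-0.63, against -0.32 in Cy3).

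Oligodendrocyte genes were mostly inside the thresholds, though 13 of 16 lay below 0, with a median of -0.195. Of 16 members 3 were lower, *Ugt8a*, *Aspa* (1.55-fold) and *Gpr37* (1.55-fold), and the major myelin genes *Mbp* (0.29), *Mobp* (0.39) and *Mog* (-0.18) were inside the thresholds. Of 11 precursor genes 3 were lower, 1 of them in both dyes, and all 11 lay below 0, with a median of -0.27. *Gpr17*, a receptor of differentiating cells, was 1.86-fold lower, from 13.43 and 13.43 to 12.44 and 12.62. *Cspg4* and *Sox6* (both -0.42) were at the edge of the threshold, and *Pdgfra* was flat at -0.02. None of 22 respiratory chain genes was past a threshold, the lowest being *Ndufa9* at -0.26. *Actb* stood at 0.29 and *Dpysl2*, the transcript of CRMP2, at -0.13, from 14.73 in Cy3 to 14.65. *Nf1*, a negative regulator of Ras, was 1.66-fold lower on its brightest probe, with 1 of the 2 probes that passed below the threshold. The receptor *Epha3* (-0.40) and the brightest probe of the lipid transfer gene *Pitpnc1* (-0.38) lay just inside the threshold. Of the 5 *Pitpnc1* probes that passed, 3 were below 0.75-fold. The cDNA *C030005H24Rik* was flat at -0.05.

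**Figure D4:**
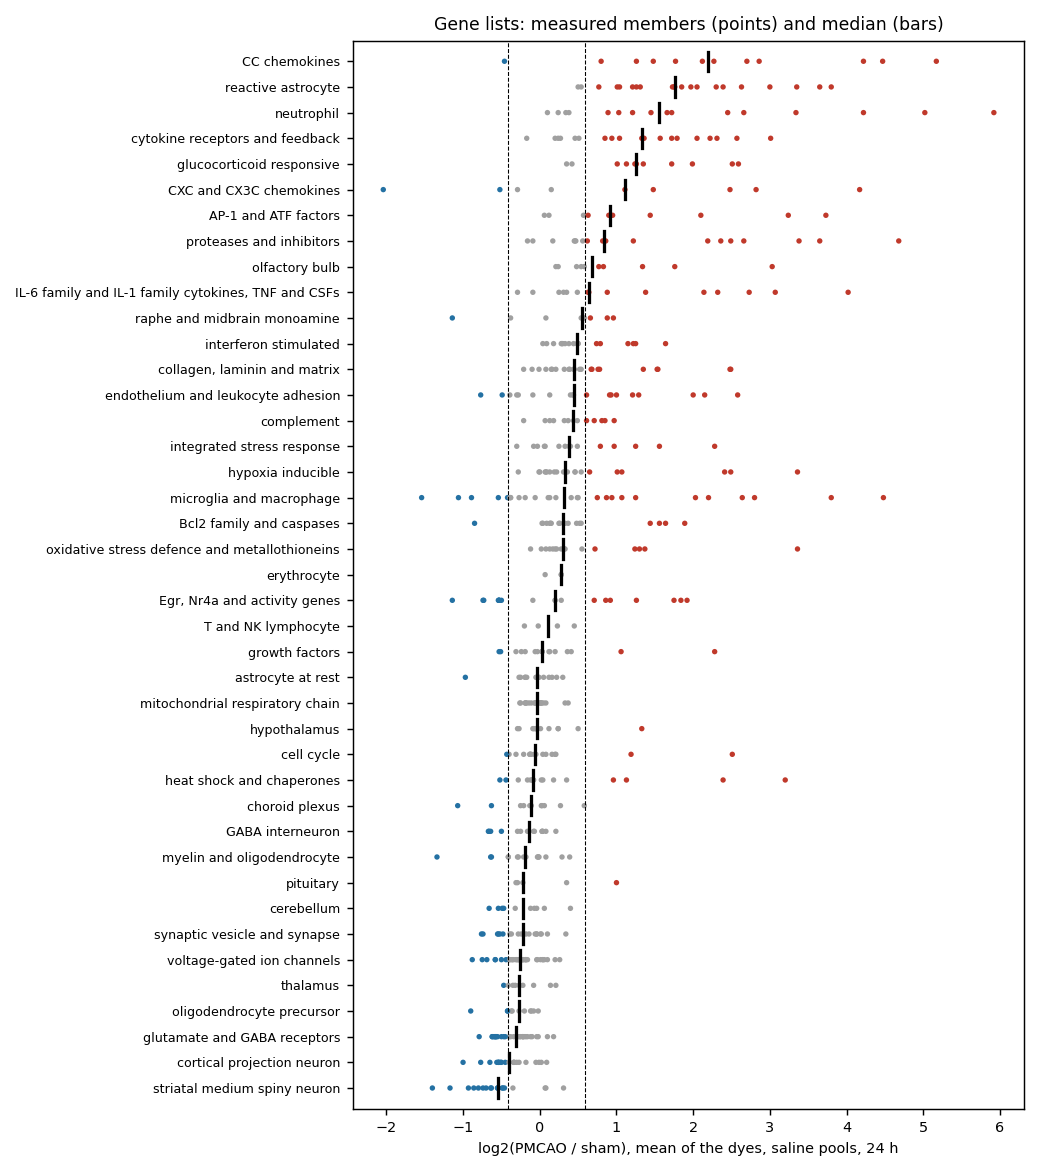
Each row is 1 of the 41 gene lists, each point a measured gene at its log2(PMCAO / sham) (mean of the dyes, *Aldh1l1* not drawn), red above 1.5-fold and blue below 0.75-fold (dashed lines), and each bar the list median. Medians run from 2.19 (CC chemokines) to -0.55 (striatal medium spiny neurons).

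Markers of tissue beside the sampled hemisphere differed between the pools. Although the olfactory bulb was removed in dissection, all 10 olfactory bulb genes were above 0 in the PMCAO pool and 5 above 1.5-fold. *S100a5*, a calcium-binding protein of olfactory sensory neurons, measured 7.0 and 7.21 in sham and 10.03 and 10.24 in PMCAO, 8.17-fold higher. *Tbx21* (3.40-fold) and *Doc2g* (2.54-fold), expressed by bulb projection neurons, *Eomes* (0.83) and *Cdhr1* (0.77) followed. The summed level of the list was 8898 to 9751 in sham and 14177 to 15095 in PMCAO. The mature sensory neuron marker *Omp* did not pass the filter. Of genes known from nasal epithelium and its glands, picked after their values were seen, *Bpifb9a* was at least 6.13-fold higher, *Bpifa1* stood at 2.14, *Cyp2a5* at 1.47 and *Cyp2g1* at 1.23. *Gng13*, a G protein subunit of olfactory cells looked at with them, was flat at 0.06. The part of olfactory or nasal tissue in these and other ratios was not tested. Of the dopaminergic and serotonergic list 3 of 9 were above, *Ddc* (0.96), *Slc6a4* (0.88) and *Tph2* (0.66), with *Th* at 0.58, which is also on the bulb list, and *Nr4a2* below. Blood genes differed little, with *Hba-a1* and *Alas2* both at 0.28. Of 11 choroid plexus genes *Sostdc1* (-1.07) and *Kcne2* (-0.63) were lower while *Ttr* was flat at 0.02. In the cerebellar list *Gabra6* did not pass the filter and 4 of 10 were lower, *Calb1*, *Car8* (-0.54), *Grp* (-0.49) and *Neurod1* (-0.47). In the hypothalamic list *Hdc*, histidine decarboxylase, was 2.51-fold higher and *Avp* (0.50) and *Pomc* (-0.29) inside the thresholds. In the pituitary list *Prl* was 1.99-fold higher, and its values were low, 6.79 and 6.88 against 7.79 and 7.88.

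Beyond the lists, which held 116 of the 323 higher genes, other named genes were as high as those above, and they were picked after their values were seen. The tubulin gene *Tubb6* was 13.5-fold and *Tuba1c* 6.43-fold higher. *Slpi*, an inhibitor of neutrophil elastase, was 11.8-fold and the transglutaminase *Tgm1* at least 11.9-fold higher. The acute phase protein *Saa3* was not well above background in sham (6.50 and 6.26) and read 9.67 and 9.58 in PMCAO. *Adam8* (9.18-fold), a sheddase of leukocytes, *Ch25h* (8.85-fold), which makes 25-hydroxycholesterol, *Angptl4* (7.46-fold) and haptoglobin (*Hp*, 7.43-fold) followed. *Acod1*, which makes itaconate in activated macrophages, was at least 5.61-fold higher.

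The same ratio was also formed in 2 other pairs of pools, and the values are set side by side here with no comparison. The PACAP38 channels of 24 h share the arrays and slide with the saline channels. There *S100a9* stood at 2.37, *S100a8* at 1.88, *Ccl2* at 4.46, *Mmp3* at 3.45, *Il6* at 1.37, *Timp1* at 2.55 and *Cxcl10* at 3.1, while *S100a5* stood at -1.41, *Tbx21* at -0.15 and *5430401F13Rik* at 0.27. At the lower end *Adora2a* stood at -0.29, *P2ry12* at -1.17 and *Ugt8a* at -1.39. The saline pools of 6 h lay on another slide, so time and slide cannot be told apart, and their Cy3 channels were dim, with a median signal less background of 17.2 and 18.2 against 91.5 and 95.8 at 24 h. There *Cd14* stood at 2.98, *Hspa1a* at 3.06, *Atf3* at 2.81, *Timp1* at 2.46, *S100a9* at 2.36 and *Ccl2* at 2.12. *Il11* (0.14), *Chil3* (0.36) and *Lgals3* (0.13) were close to 0, and *Mmp3* and *Il6* did not pass the filter. *P2ry12* stood at -1.35, *Gpr34* at -1.29 and *Adora2a* at 0.04.

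**Figure D5:**
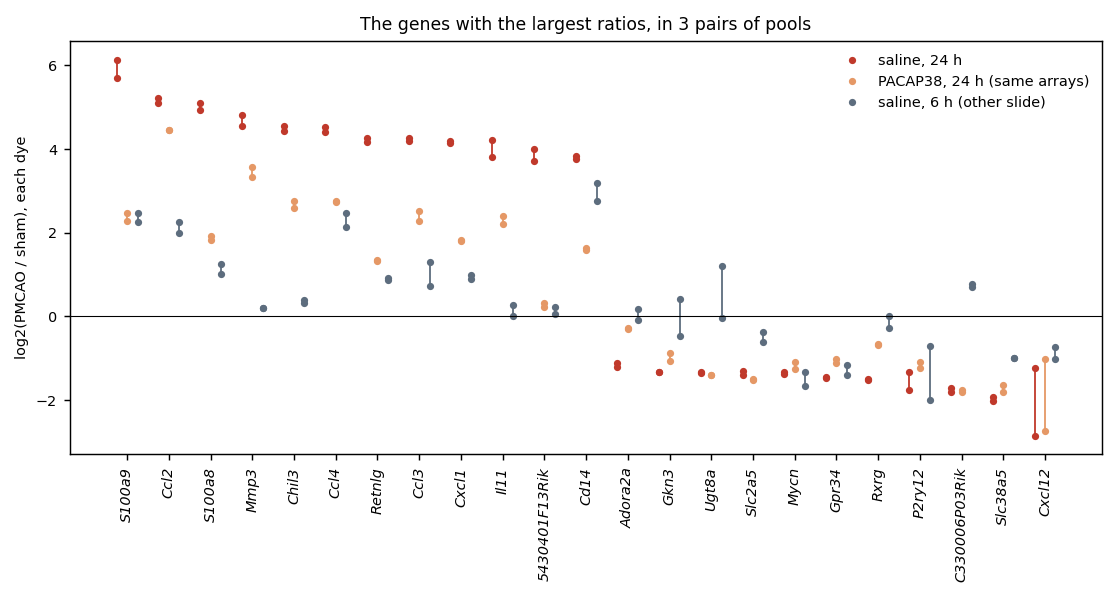
log2(PMCAO / sham) in each dye (points, joined by a line) for the 12 highest and 11 of the 12 lowest genes of the saline pools of 24 h (red), in the PACAP38 channels of the same arrays (orange) and in the saline pools of 6 h on another slide (grey). The genes were chosen on the red values, so the other colours are given as values only; *S100a9* stands at 5.92, 2.37 and 2.36 in the mean of the dyes.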

How the data were processed

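RNA of the right hemisphere was labelled with Cy3 or Cy5 (900 ng per labelling) and hybridized to 60-mer arrays. The authors deposited scanner output of Agilent Feature Extraction (version 9.5.3.1 at 24 h and 9.5.1.1 at 6 h, per the file headers), with un-normalized intensity values per spot (mean signal, median local background). Its 0 or 1 flags for outliers, saturation and signal over background were deposited per spot. A deposited table of ratios of PACAP38 to saline channels was not used here. A second copy existed for 3 arrays of 24 h and held identical values.

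The mean signal less local background was corrected by normexp (offset 50) and the log2 values of the 4 saline channels were quantile normalized in limma 3.58.1 (R 4.3.3). Control spots and spots flagged as outliers (97 to 145 per channel) were left out and spots of a probe averaged. The offset pulls ratios of dim probes towards 0. A probe counted where it was well above background on both arrays of at least 1 group. PMCAO over sham was taken within a dye and averaged over the dyes. The thresholds, above 1.5-fold and below 0.75-fold, are those of the study. No test was made, since each group is 1 pool, and "higher" or "lower" in a count of genes means past these thresholds. Script steps were tested on simulated data.

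Of 41174 probes, 22951 were named through RefSeq accessions (GRCm38.p6), 11662 by the name in the file and 6561 had no name. A gene was represented by its brightest probe. For *Bag3*, *Car8*, *Cspg4*, *Dlg4*, *Kcnq5*, *Kcnv1* and *Mycn*, only 1 of the 2 probes that passed was past the threshold. An "at least" fold is given where neither array of 1 group was well above background for a probe. After loess and Aquantile normalization, the brighter group's mean is set against the probe's own signal on each dim array or, if higher, the lowest signal of any probe well above background there. Named were the 12 highest and 12 lowest genes past 2-fold in each dye, in each of 41 lists the 3 genes of largest ratio, the genes the paper names, and further list members where described. The promoters shown were picked after their matches were seen. The members, lists and rules were chosen with earlier results of these data known. Arrays give no count of molecules, so their number limits the precision. Alternatives were another offset, the processed signals, 3 other normalizations, other filters and thresholds, each dye alone and the mean over a gene's probes. Some measured genes are not reported here by name, though the counts and medians include them. Where the bound came out above the probe's own fold, no fold is given. Of the other genes named, *Fpr1*, *Msr1*, *Lox*, *Eomes* and *Ccr2* were well above background on 1 of 2 sham arrays.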

Additional observations from a re-analysis of the deposited data

Results flagged for a closer look

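For 2 named genes both dyes were past a threshold in one direction at 24 h and in the other at 6 h in the saline pools. The difference between the times was not tested, and time and slide cannot be told apart. *Bdnf*, a neurotrophin, stood at -0.53 at 24 h (-0.47 in Cy3 and -0.58 in Cy5) and at 0.90 at 6 h (0.72 and 1.08). *C330006P03Rik* stood at -1.76 at 24 h (-1.81 and -1.71) and at 0.74 at 6 h (0.71 and 0.77).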

How the results depend on the processing

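No paired analysis was possible because no result comes from a test and the ratios were already taken within a dye. The counts of 1263 higher and 2125 lower probes became 1918 and 3538 with normexp offset 0 and 2346 and 3883 with the processed signals scaled to the 75th percentile. A 2-fold threshold either way left 515 and 63 probes, a 1.5-fold threshold 737 lower ones, and gene symbols in place of probes 864 higher and 1184 lower. With cyclic loess the counts were 1490 and 1474, so that 50.3% of the calls were higher against 37.3%. With 1 dye alone they were 1240 to 1388 higher and 2220 to 2517 lower. Without the probes whose dyes differed by more than 2-fold, a setting chosen after seeing the data, 1094 and 2085 were left. The other settings kept both counts within 1.5 times. No named gene past a threshold and no list median past one changed sign under any setting run. Of 112 such genes, 108 to 112 stayed past the threshold, and *Sox6*, *Cspg4*, *Gbx2*, *Ccnd2*, *Tbr1*, *Dlg4*, *Car8*, *C1ra* and *Gria3* were those that did not in at least 1 setting. The size of the ratios depended more on the processing. Of 139 named genes, the log2 ratio was marked as moved for 73 with offset 0, 90 with the processed signals and 46 with cyclic loess. The neutrophil median was 1.19 over all probes and 3.98 with the processed signals, against 1.56. The processed signals also raised those of cytokines to 1.66, of CC chemokines to 2.79, of CXC chemokines to 1.72 and of proteases to 2.24. Those of striatal neurons stayed between -0.62 and -0.51. The medians of resting astrocyte, heat shock, cell cycle, respiratory chain, growth factor and hypothalamic genes lay near 0 and had either sign. The median of all genes lay between -0.06 and 0.01. Low signal in sham limits the folds given as "at least".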
